A study of Mus musculus with 16 samples.

Results

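Cholesterol synthesis was examined in mouse kidney cortex through 9 genes, namely Hmgcs1, Mvd, Fdps, Fdft1, Sqle, Lss, Cyp51 and Sc5d, which encode enzymes of the pathway, and Srebf2, which encodes its main transcriptional activator. The genes were chosen by name, and each was read from the probe set annotated to it, taking the one of highest mean where a gene had several, although each of the 9 had only 1. They are 9 of 22180 genes measured. Total RNA from the kidney cortex of mice aged 3 months on normal diet was hybridised to 16 Affymetrix arrays, 4 in each of 4 genotypes, and the deposited values are on the log2 scale, normalised by robust multi-array averaging (RMA), so a difference of 1 is a doubling. Double mutants (VhlF/FPbrm1F/FKsp-Cre) carried floxed alleles of both Vhl and Pbrm1 with Ksp-Cre. Vhl mutants (VhlF/FKsp-Cre) and Pbrm1 mutants (Pbrm1F/FKsp-Cre) carried floxed alleles of a single gene with the same Cre, and the fourth group was labelled Wildtype. Ksp-Cre is the Cre recombinase driven by the promoter of Cdh16, a cadherin of tubular epithelium, so recombination is limited to the cells in which that promoter is active and cortex RNA also holds transcripts of other cells. In such bulk RNA, fewer cells of a type and less RNA per cell cannot be told apart. The mutants were on a mixed background of C57BL/6, BALB/c and 129, whereas the wild-type mice were C57BL/6, so genotype and strain cannot be told apart in any comparison with wild type. The labels do not say whether the mutant lines carry the same strain alleles at each gene, so comparisons between mutants may also hold strain differences. No Ksp-Cre mouse without floxed alleles was among the groups. Vhl encodes the substrate-binding subunit of the ubiquitin ligase that degrades hypoxia-inducible factors, and Pbrm1 encodes a subunit of the PBAF chromatin remodeller. Both are tumour suppressors of clear cell renal cell carcinoma, and the study looked for early transcriptional events that may bear on the formation of that tumour.

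Cells build cholesterol from acetyl-CoA. HMG-CoA synthase, the product of Hmgcs1, forms HMG-CoA in the cytosol on the way to mevalonate, and the mevalonate kinases and Mvd turn mevalonate into isopentenyl diphosphate. Fdps condenses such units into farnesyl diphosphate, the branch point to prenylated proteins, dolichol and ubiquinone. Fdft1 joins farnesyl units into squalene, Sqle oxidises squalene, and Lss closes the rings to give lanosterol. Cyp51 removes a methyl group from lanosterol, and Sc5d introduces a ring double bond late in the pathway. When membranes are low in sterol, SREBP-2, the product of Srebf2, is released from the endoplasmic reticulum with the help of Scap and is cleaved, and its active part binds sterol regulatory elements near most genes of the pathway, often beside CCAAT boxes bound by NF-Y. Genes of the pathway therefore commonly rise and fall together. Kidney tubule cells both make cholesterol and take it up from lipoproteins, and clear cell renal carcinoma is named for cells that store cholesterol esters and other lipids.

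Promoters were available in the RefSeq table (GRCm38.p6) for 6 of the 9 genes, and the 250 bases before the start are shown for the 3 genes whose levels separated the genotypes most clearly. Capitals mark the sterol regulatory element core TCACNCCA and the CCAAT box, on either strand, so ATTGG is a CCAAT box on the other strand. The Hmgcs1 window lies at chr13:119690101-119690350 on the plus strand, the Sc5d window at chr9:42264301-42264550 on the minus strand and the Cyp51 window at chr5:4104698-4104947 on the minus strand, each given 5′ to 3′ along its gene.
Hmgcs1: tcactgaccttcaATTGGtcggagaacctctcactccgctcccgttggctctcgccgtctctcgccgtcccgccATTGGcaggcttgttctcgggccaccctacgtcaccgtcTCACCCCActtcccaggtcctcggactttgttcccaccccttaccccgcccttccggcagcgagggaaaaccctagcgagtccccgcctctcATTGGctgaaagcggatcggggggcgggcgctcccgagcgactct
Sc5d: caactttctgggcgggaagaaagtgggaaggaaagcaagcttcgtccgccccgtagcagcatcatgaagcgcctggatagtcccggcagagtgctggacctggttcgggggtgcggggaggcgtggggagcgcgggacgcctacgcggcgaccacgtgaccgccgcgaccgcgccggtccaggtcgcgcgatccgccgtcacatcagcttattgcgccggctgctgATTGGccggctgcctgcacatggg
Cyp51: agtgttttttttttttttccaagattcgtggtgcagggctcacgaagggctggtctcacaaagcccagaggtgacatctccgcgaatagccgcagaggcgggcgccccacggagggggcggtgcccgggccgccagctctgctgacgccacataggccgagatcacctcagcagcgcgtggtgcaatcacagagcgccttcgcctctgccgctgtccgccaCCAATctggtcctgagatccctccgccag
Hmgcs1 held 1 sterol regulatory element core, whose first base lies at -137 from the start, and 3 CCAAT boxes. Sc5d and Cyp51 held 1 CCAAT box each and no TCACNCCA in these windows. Over the 6 promoters, 2 (Hmgcs1 and Srebf2) held TCACNCCA, against 3.67% of all 32851 promoters in the table, and all 6 held CCAAT, against 33.8%. The GC box GGGCGG, searched on both strands, was found in all 6 promoters, against 32.7% of the table, and the E-box CACGTG, which reads the same on both strands, in 1 (Sc5d), against 6.02%. CCAAT and TCACNCCA can overlap at CCA, and GGGCGG can overlap the reverse of CCAAT at GG. These matches describe letters only. The search took exact letters, so a window without a match can still hold variants of an element. Such a window says nothing about binding inside or outside it.

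All 9 genes were measured above background. Their means over the 16 arrays lay between 6.31 and 10.94, against a lower quartile of all probe sets between 3.27 and 3.33 per array. The groups were compared with limma over all 22180 genes, and a gene is said to pass, or to be called, where its p adjusted by Benjamini-Hochberg was under 0.05. Nothing in the labels ties each array to its own animal. The descriptions carry 2 numbers per group, with a letter L or R, and the labels do not say what these mark. If the numbers mark animals, each group holds 2 animals, and arrays that share a number are not independent replicates. The p-values then rest on a spread that lies partly within animals and may be partly technical. Precision is limited by there being 4 arrays, and perhaps only 2 animals, a group. In what follows n counts arrays. Double mutant replicates 2 and 3 carry the same description, but their values differed by a mean of 0.188 over the 9 genes, so they were kept as separate arrays. Replicate 3 lay nearer to replicate 4, with a mean difference of 0.165, although the descriptions group it with replicates 1 and 2. The Vhl and Pbrm1 probe sets passed the test in none of the 7 comparisons, with adjusted p between 0.55 and 0.99, and they do not check the labels, since such a probe set can read sequence outside the deleted exons. Cdh16 itself was lower by 0.33 ± 0.05 (SE) in double mutants than in wild type (adjusted p = 5.4e-05, limma) and by 0.22 ± 0.05 in Vhl mutants (adjusted p = 0.0082).

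Against wild type, 4 of the 9 genes passed in double mutants (1 higher, 3 lower), 1 in Vhl mutants (lower) and 3 in Pbrm1 mutants (1 higher, 2 lower). Of all genes, 12.2% passed in double mutants (6.64% higher, 5.56% lower), 3.84% in Vhl mutants (2.04% higher, 1.79% lower) and 4.04% in Pbrm1 mutants (1.59% higher, 2.45% lower). The pathway did not move as a block, since Cyp51 rose while Sc5d fell in the same arrays. Fdps, Fdft1 and Srebf2 did not pass in any comparison. The median log2 difference of the 9 genes was -0.136 in double mutants, -0.056 in Vhl mutants and -0.191 in Pbrm1 mutants, beside -0.021, -0.009 and -0.005 over all genes in the same order. The 3 comparisons share the wild-type arrays. Regardless of sign, the median difference of the 9 genes was 0.293 in double mutants, 0.098 in Vhl mutants and 0.257 in Pbrm1 mutants. Over all genes it was 0.121, 0.106 and 0.102 in the same order. Of the 9 genes, Hmgcs1, Sc5d and Cyp51 had the largest differences.

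**Figure D1:**
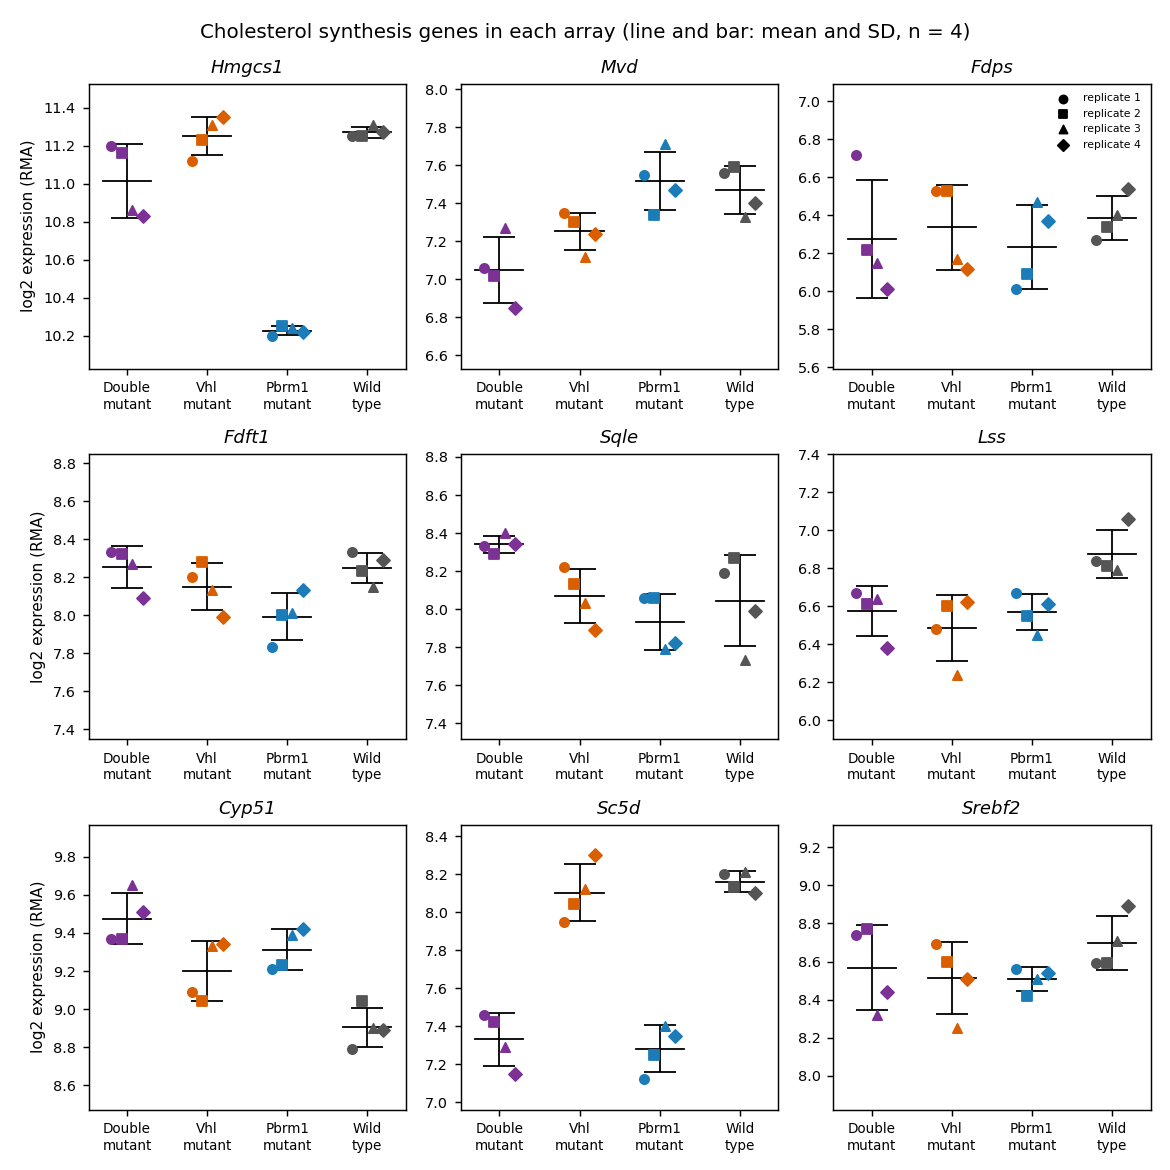
Log2 expression (RMA, vertical axis) of the 9 genes in each of the 16 arrays, by genotype. Marker shapes stand for replicates 1 to 4, lines and bars for the mean and SD of 4 arrays, and each panel spans 1.5 log2 units around its own centre; Hmgcs1 lies between 10.20 and 10.25 in Pbrm1 mutants alone, and Sc5d lies at or below 7.46 in both genotypes that carry floxed Pbrm1.

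Hmgcs1 was lowest in the Pbrm1 mutants. It stood at 10.20, 10.25, 10.24 and 10.22 in the 4 Pbrm1 mutant arrays, against 11.25, 11.25, 11.31 and 11.27 in the wild-type arrays. The Pbrm1 mutants spread by an SD of 0.02 and the wild type by 0.03, and the groups were separated by about a log2 unit. The difference was -1.04 ± 0.07 (SE; 95% interval -1.2 to -0.89), a level 2.06-fold lower in Pbrm1 mutants (adjusted p = 3.1e-08, limma). It was the 8th smallest p-value among the 22180 genes of that comparison.

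The double mutants did not share that level. The double mutant arrays read 11.20, 11.16, 10.86 and 10.83 for Hmgcs1, all above the 4 Pbrm1 mutant arrays and all below the 4 wild-type arrays. Replicates 1 and 2 lay near the wild type, whereas replicates 3 and 4 lay lower, which gave the largest SD of any genotype for this gene (0.20). Double mutants exceeded Pbrm1 mutants by 0.78 ± 0.08 (1.71-fold, adjusted p = 4.4e-07, limma).

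The smaller difference between double mutants and wild type was less secure. Hmgcs1 was lower by 0.26 ± 0.08 in double mutants (1.2-fold, adjusted p = 0.025, limma). The call was lost without wild-type replicate 3 (-0.25, adjusted p = 0.06), without double mutant replicate 3 (-0.22, adjusted p = 0.076) and without double mutant replicate 4 (-0.20, adjusted p = 0.12). It was also lost without wild-type replicates 1 and 2 (-0.28, adjusted p = 0.072), without wild-type replicates 3 and 4 (-0.24, adjusted p = 0.12), and with a prior variance that does not follow expression (-0.26, adjusted p = 0.074).

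In Vhl mutants Hmgcs1 stood at 11.12, 11.23, 11.31 and 11.35, a range that contains all 4 wild-type values. The difference was -0.01 ± 0.07 (95% interval -0.17 to 0.14, adjusted p = 0.96, limma). Pbrm1 mutants were lower than Vhl mutants by 1.03 ± 0.07 (2.04-fold, adjusted p = 1.6e-08), and double mutants differed from Vhl mutants by -0.25 ± 0.08 (adjusted p = 0.052), a difference that passed without double mutant replicate 1 (-0.31, adjusted p = 0.013), double mutant replicate 2 (-0.30, adjusted p = 0.025) or Vhl mutant replicate 1 (-0.29, adjusted p = 0.026). The interaction, which is the double mutant difference from wild type minus the sum of both single-mutant differences, was 0.79 ± 0.11 for Hmgcs1 (95% interval 0.57 to 1.01, adjusted p = 0.00025). It was the only interaction that passed among the 9 genes, where 2.63% of all genes passed (1.78% above 0 and 0.852% below). The sum of the single-mutant differences from wild type thus lay well below the double mutant difference from wild type (-0.26). A difference from wild type shared by all mutants, such as strain background or Cre, does not cancel in the interaction. Genotype and strain therefore cannot be told apart in it either.

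Mvd, the decarboxylase that ends the mevalonate steps, was lowest in the double mutants. It read 7.06, 7.02, 7.27 and 6.85 in double mutants, against 7.56, 7.59, 7.33 and 7.40 in wild type. All double mutant arrays lay below all wild-type arrays, with replicate 3 close to the lowest wild-type value. The difference was -0.43 ± 0.10 (1.35-fold lower, adjusted p = 0.0056, limma), and leaving out wild-type replicates 1 and 2 together ended the call (-0.32, adjusted p = 0.094).

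The single mutants lay on either side. Mvd read 7.35, 7.30, 7.12 and 7.24 in Vhl mutants, a difference of -0.22 from wild type that did not pass (adjusted p = 0.27, limma). In Pbrm1 mutants it read 7.55, 7.34, 7.71 and 7.47, a range that overlapped wild type (0.05, adjusted p = 0.89). Every double mutant array was below every Pbrm1 mutant array, and double mutants were lower by 0.48 ± 0.10 (1.39-fold, adjusted p = 0.0026).

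Fdps, which makes farnesyl diphosphate, showed no genotype difference that passed. The 4 genotypes had means of 6.27 ± 0.31 in double mutants, 6.34 ± 0.22 in Vhl mutants, 6.24 ± 0.22 in Pbrm1 mutants against 6.39 ± 0.12 in wild type (SD, n = 4 each), and their ranges overlapped. Adjusted p in the 7 comparisons lay between 0.69 and 0.95. Within the double mutants the values ran from 6.01 in replicate 4 to 6.72 in replicate 1, wider than the 0.15 that separated the highest and lowest genotype means.

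Fdft1, the squalene synthase, differed little. Its values were 7.83, 8.0, 8.01 and 8.13 in Pbrm1 mutants, against 8.33, 8.23, 8.15 and 8.29 in wild type, so that all Pbrm1 mutant arrays lay just below all wild-type arrays. The difference of -0.26 did not pass (adjusted p = 0.082, limma). Double mutants, at 8.33, 8.32, 8.27 and 8.09, came close to the Pbrm1 mutants only in replicate 4, which lay within their range, and averaged 0.25 above them (adjusted p = 0.052). That difference passed without double mutant replicate 4 (0.31, adjusted p = 0.022), Pbrm1 mutant replicate 4 (0.30, adjusted p = 0.03), wild-type replicate 4 (0.25, adjusted p = 0.048), Vhl mutant replicate 1 (0.25, adjusted p = 0.049) or Vhl mutant replicate 4 (0.25, adjusted p = 0.036). The Vhl mutants, at 8.20, 8.28, 8.13 and 7.99, overlapped every other group.

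Sqle, the squalene epoxidase, was highest in the double mutants. It read 8.33, 8.29, 8.40 and 8.34 in double mutants, against 8.06, 8.06, 7.79 and 7.82 in Pbrm1 mutants. Every double mutant array exceeded every Pbrm1 mutant array, and the difference was 0.41 ± 0.10 (1.33-fold, adjusted p = 0.012, limma). That call was lost when arrays sharing a description number were averaged (adjusted p = 0.098), without Pbrm1 mutant replicates 3 and 4 (0.28, adjusted p = 0.21) and without double mutant replicates 1 to 3 (0.41, adjusted p = 0.24).

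Double mutants also exceeded each of the other arrays for Sqle. The Vhl mutants stood at 8.22, 8.13, 8.03 and 7.89 and the wild type at 8.19, 8.27, 7.73 and 7.99, all below the lowest double mutant array. The wild type had the widest spread (SD 0.24), and the double mutant differences from wild type (0.29, adjusted p = 0.07, limma) and from Vhl mutants (0.27, adjusted p = 0.13) did not pass. Without wild-type replicate 2 the difference from wild type passed (0.36, adjusted p = 0.025), and without wild-type replicate 3 the interaction, 0.39 over all arrays (adjusted p = 0.18), passed too (0.49, adjusted p = 0.039).

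Lss, the lanosterol synthase, was highest in wild type. It read 6.67, 6.61, 6.64 and 6.38 in double mutants, 6.48, 6.60, 6.24 and 6.62 in Vhl mutants, 6.67, 6.55, 6.45 and 6.61 in Pbrm1 mutants against 6.84, 6.81, 6.79 and 7.06 in wild type. All 12 mutant arrays lay below all 4 wild-type arrays, and the 3 mutant groups overlapped each other. The Vhl mutant difference of -0.39 ± 0.10 passed (1.31-fold lower, adjusted p = 0.03, limma), while those of double mutants (-0.31, adjusted p = 0.051) and Pbrm1 mutants (-0.31, adjusted p = 0.10) did not. Whether the Vhl mutants differ from the other mutants in this was tested directly, and neither the double mutants (0.08, adjusted p = 0.72) nor the Pbrm1 mutants (0.09, adjusted p = 0.73) did so beyond the threshold.

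The Vhl mutant call for Lss rested on several single arrays. It was lost without wild-type replicate 1 (-0.40, adjusted p = 0.059, limma), wild-type replicate 4 (-0.33, adjusted p = 0.077), Vhl mutant replicate 1 (-0.39, adjusted p = 0.061) or Vhl mutant replicate 3 (-0.31, adjusted p = 0.099). Averaging arrays of a description number gave an adjusted p of 0.14. The double mutant difference, in turn, passed without Vhl mutant replicate 3 (-0.31, adjusted p = 0.029) or replicate 4 (-0.31, adjusted p = 0.045), which enter only the shared spread.

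Cyp51, the lanosterol demethylase, was the only one of the 9 genes to pass as higher than wild type. It read 9.37, 9.37, 9.65 and 9.51 in double mutants, against 8.79, 9.04, 8.90 and 8.89 in wild type. Every double mutant array exceeded every wild-type array, and the difference was 0.58 ± 0.09 (1.49-fold, adjusted p = 9e-05, limma). The Pbrm1 mutants, at 9.21, 9.23, 9.39 and 9.42, also lay above all wild-type arrays and were higher by 0.41 ± 0.09 (1.33-fold, adjusted p = 0.007).

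The Pbrm1 mutant call for Cyp51 was lost on averaging arrays by description number (0.41, adjusted p = 0.08, limma) and without Pbrm1 mutant replicates 3 and 4 (0.32, adjusted p = 0.15). The Vhl mutants read 9.09, 9.04, 9.33 and 9.34, with replicate 2 level with the highest wild-type array, and their difference of 0.30 ± 0.09 did not pass (adjusted p = 0.054), although it did without wild-type replicate 2 (0.35, adjusted p = 0.04), double mutant replicate 3 (0.30, adjusted p = 0.044) or Vhl mutant replicate 2 (0.35, adjusted p = 0.035). Double mutants differed from Vhl mutants by 0.28 (adjusted p = 0.061), which passed without Vhl mutant replicate 3 (0.32, adjusted p = 0.047) or replicate 4 (0.32, adjusted p = 0.038), and narrowly, at an adjusted p that rounds to 0.05, without wild-type replicate 2. The interaction was -0.13 ± 0.12 (95% interval -0.39 to 0.12, adjusted p = 0.65). Cyp51 therefore had its order from double mutants through Pbrm1 and Vhl mutants to wild type, in which only the differences of double mutants and Pbrm1 mutants from wild type passed.

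**Figure D2:**
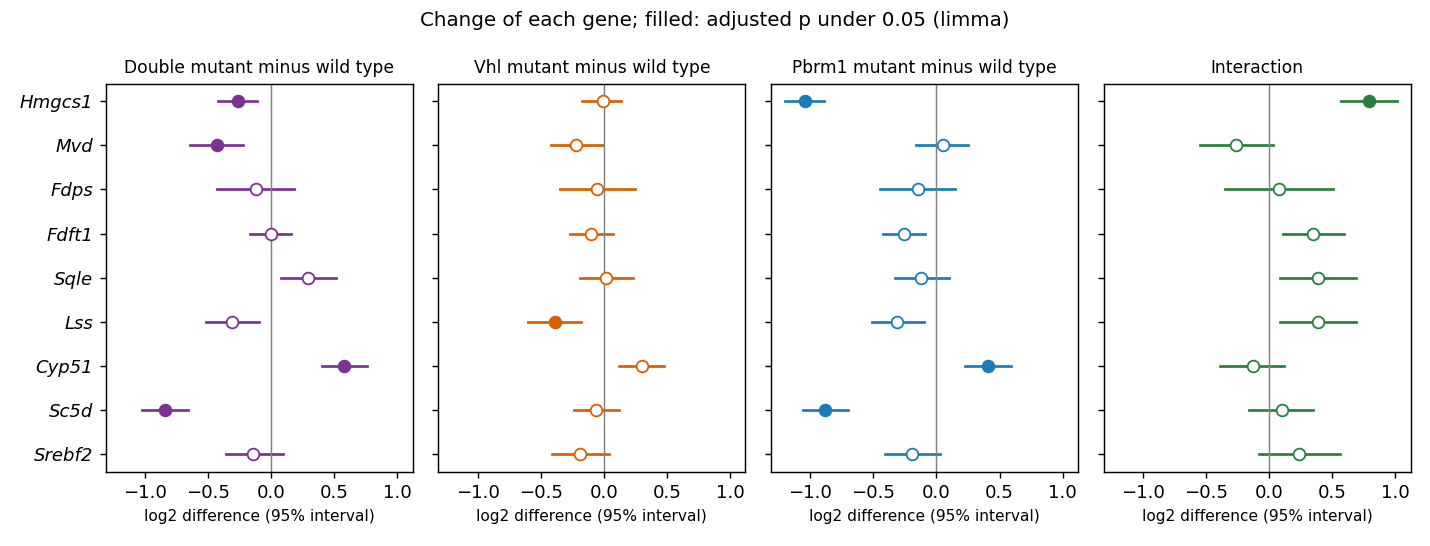
Log2 difference (horizontal axis, with 95% interval) of each of the 9 genes for double mutants, Vhl mutants and Pbrm1 mutants minus wild type and for the interaction. Filled points passed the threshold in limma; the Hmgcs1 point lies at -1.04 in Pbrm1 mutants and at 0.79 for the interaction, and Sc5d lies at -0.84 in double mutants and -0.88 in Pbrm1 mutants.

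Sc5d, the late sterol desaturase, was low wherever Pbrm1 was floxed. It read 7.46, 7.42, 7.29 and 7.15 in double mutants and 7.12, 7.25, 7.40 and 7.35 in Pbrm1 mutants, whereas the wild type read 8.20, 8.13, 8.21 and 8.10. The 8 arrays with floxed Pbrm1 overlapped each other and all lay clearly below the lowest wild-type array. Double mutants were lower than wild type by 0.84 ± 0.09 (1.79-fold, adjusted p = 1.1e-06, limma), and Pbrm1 mutants by 0.88 ± 0.09 (1.84-fold, adjusted p = 2.5e-06).

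Vhl mutants kept Sc5d near the wild-type level. Their arrays read 7.95, 8.04, 8.12 and 8.30, overlapping the wild type, with a difference of -0.06 (95% interval -0.24 to 0.12, adjusted p = 0.82, limma). Among the mutants, double mutants were lower than Vhl mutants by 0.78 ± 0.09 (1.72-fold, adjusted p = 6.1e-06, limma) and Pbrm1 mutants by 0.82 ± 0.09 (1.77-fold, adjusted p = 2.4e-06). The labels name the same strains for all mutants, which does not make their backgrounds the same at each gene. Double mutants differed from Pbrm1 mutants by 0.04 (95% interval -0.14 to 0.22, adjusted p = 0.85), and the interaction was 0.10 ± 0.12 (95% interval -0.16 to 0.35, adjusted p = 0.77).

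Hmgcs1 and Sc5d thus differed in what the double mutants did. Pbrm1 mutants were low for both genes, but the double mutants stood 0.78 above the Pbrm1 mutants for Hmgcs1 and 0.04 above them for Sc5d. All 4 Sc5d calls, and the Hmgcs1 calls of Pbrm1 mutants against wild type, Pbrm1 mutants against Vhl mutants, double mutants against Pbrm1 mutants and the interaction, passed under every one of the alternative settings run.

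Srebf2 transcript did not differ by genotype beyond the threshold. Its means were 8.57 ± 0.22 in double mutants, 8.51 ± 0.19 in Vhl mutants, 8.51 ± 0.06 in Pbrm1 mutants against 8.70 ± 0.14 in wild type (SD, n = 4 each). The groups overlapped, and the differences from wild type were -0.14 (adjusted p = 0.52, limma), -0.19 (adjusted p = 0.42) and -0.19 (adjusted p = 0.41) in double, Vhl and Pbrm1 mutants. SREBP-2 is controlled largely by its cleavage, which these arrays do not measure. As with Hmgcs1, the double mutant arrays split, at 8.74 and 8.77 in replicates 1 and 2 and 8.32 and 8.44 in replicates 3 and 4.

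Between mutant groups, 1 of the 9 genes passed for double against Vhl mutants (Sc5d, lower), where 6.35% of all genes passed (3.8% higher, 2.55% lower). For double against Pbrm1 mutants 3 passed (Hmgcs1 and Sqle higher, Mvd lower), where 10.2% of all genes did (6.82% higher, 3.37% lower). For Pbrm1 against Vhl mutants 2 passed (Hmgcs1 and Sc5d, both lower), where 7.47% of all genes did (2.75% higher, 4.71% lower). The median log2 difference of the 9 genes in these 3 comparisons was 0.05, 0.056 and -0.10, beside -0.01, -0.023 and 0.009 over all genes.

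The rest of the pathway was read from a list of other synthesis enzymes, of which 10 were on the gene table. In double mutants 3 of them were lower than wild type and 0 higher. They were Lbr (-0.51 ± 0.08, adjusted p = 0.00011, limma) and Tm7sf2 (-0.49 ± 0.09, adjusted p = 0.00084), the alternative sterol reductases that act after Cyp51, and Hsd17b7 (-0.35 ± 0.08, adjusted p = 0.0059), a ketoreductase of the demethylation steps. In Vhl mutants 1 was lower (Hsd17b7, -0.32, adjusted p = 0.027) and in Pbrm1 mutants 1 was lower (Lbr, -0.62 ± 0.08, adjusted p = 3.8e-05). Of all genes, 5.56% were lower in double mutants, 1.79% in Vhl mutants and 2.45% in Pbrm1 mutants. The Vhl mutant call of Hsd17b7 was lost without wild-type replicate 1 (-0.27, adjusted p = 0.10), wild-type replicate 2 (-0.29, adjusted p = 0.077), Vhl mutant replicate 2 (-0.31, adjusted p = 0.065) or Vhl mutant replicate 3 (-0.32, adjusted p = 0.06). Hsd17b7 was also lower in double than in Pbrm1 mutants (-0.30, adjusted p = 0.02) and higher in Pbrm1 than in Vhl mutants (0.27, adjusted p = 0.044). The first of these was lost without double mutant replicate 4 or Pbrm1 mutant replicates 1 or 4 (-0.28 to -0.24), and the second without any of 8 single arrays (0.25 to 0.28). The other 7, Mvk, Pmvk, Idi2, Msmo1, Nsdhl, Ebp and Dhcr7, passed in no comparison.

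Lbr, whose protein also anchors chromatin at the inner nuclear membrane, shared the genotype order of Sc5d. It read 8.09, 8.11, 8.19 and 7.85 in double mutants and 7.95, 7.97, 7.96 and 7.87 in Pbrm1 mutants, whereas the wild type read 8.61, 8.56, 8.53 and 8.52. All 8 arrays with floxed Pbrm1 lay below all wild-type arrays and below the Vhl mutants, which read 8.28, 8.51, 8.45 and 8.58. Lbr was lower than in Vhl mutants by 0.40 ± 0.08 in double mutants (adjusted p = 0.0023, limma) and by 0.52 ± 0.08 in Pbrm1 mutants (adjusted p = 0.00012).

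**Figure D3:**
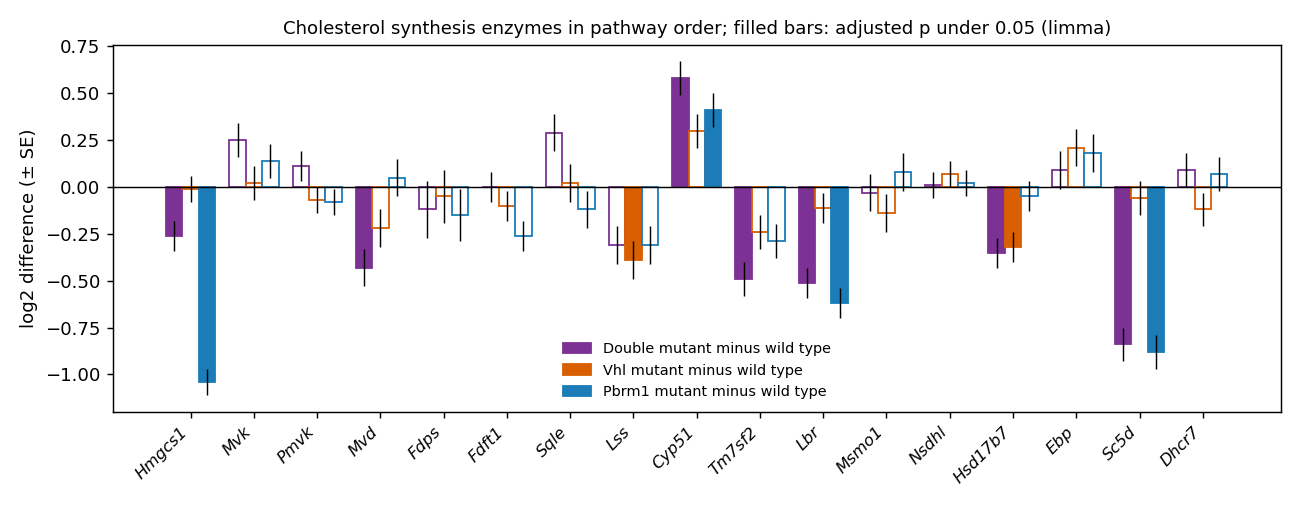
Log2 difference from wild type (vertical axis, bars with SE) of 17 synthesis enzymes in the order of the pathway from left to right, for double, Vhl and Pbrm1 mutants. Filled bars passed the threshold in limma; Cyp51 is the only enzyme with a filled bar above 0, at 0.58 in double mutants and 0.41 in Pbrm1 mutants, and Idi2 is not drawn.

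Of 11 other users of farnesyl diphosphate, the branch enzymes toward prenylation, dolichol and ubiquinone, 0 passed in limma against wild type in any genotype, while 4 had an unadjusted p under 0.05 in double mutants, 3 in Vhl mutants and 2 in Pbrm1 mutants. Of all genes, 12.2% passed in double mutants, 3.84% in Vhl mutants and 4.04% in Pbrm1 mutants. Between mutants only Dhdds, a dolichol enzyme, passed, lower by 0.22 in double than in Pbrm1 mutants (adjusted p = 0.043).

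Of 10 genes of sterol sensing and SREBP processing, 1 was lower than wild type in double mutants, 0 passed in Vhl mutants and 1 was lower in Pbrm1 mutants. Both calls were Erlin1, whose product sits in the endoplasmic reticulum membrane and restrains SREBP activation. Of all genes, 12.2% passed in double mutants (5.56% lower), 3.84% in Vhl mutants and 4.04% in Pbrm1 mutants (2.45% lower). Erlin1 read 6.90, 6.96, 7.08 and 6.95 in double mutants and 6.76, 6.99, 6.80 and 6.73 in Pbrm1 mutants, whereas the Vhl mutants read 7.26, 7.59, 7.78 and 7.84 and the wild type 8.04, 7.97, 7.71 and 7.70. Arrays with floxed Pbrm1 lay below all others. The differences from wild type were -0.88 ± 0.11 in double mutants (adjusted p = 1.4e-05, limma) and -1.04 ± 0.11 in Pbrm1 mutants (adjusted p = 7.3e-06).

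Insig1, which retains SREBP in the endoplasmic reticulum and is itself a target of SREBP, passed only for the interaction. Its mean was 8.37 ± 0.29 in double mutants, 8.68 ± 0.13 in Vhl mutants, 8.69 ± 0.16 in Pbrm1 mutants against 8.34 ± 0.05 in wild type (SD, n = 4 each). The interaction of -0.67 ± 0.16 (adjusted p = 0.026, limma) was lost without Pbrm1 mutant replicate 3 (-0.66, adjusted p = 0.053) or replicate 4 (-0.62, adjusted p = 0.056), with adjusted p of up to 0.14 over its alternatives. Scap, Insig2, Mbtps1, Mbtps2 and Srebf1, the remaining core of the pathway that releases SREBP, passed in no comparison.

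Of the uptake genes, Scarb1 differed most clearly. Scarb1, the receptor that takes cholesterol esters from HDL, read 7.43, 7.22, 7.18 and 7.19 in double mutants, against 6.81, 6.67, 6.63 and 6.65 in wild type. All double mutant arrays exceeded all wild-type arrays, by 0.56 ± 0.09 (adjusted p = 0.00018, limma). Pbrm1 mutants, at 6.38, 6.41, 6.11 and 6.36, lay below all other arrays and 0.94 ± 0.09 below the double mutants (adjusted p = 4.1e-07). Of the 13 uptake and transport genes, 2 were higher (Scarb1 and Gramd1a) and 1 lower (Lipa) in double mutants than in wild type, 1 was higher in Vhl mutants (Scarb1, adjusted p = 0.049), and 2 were lower in Pbrm1 mutants (Scarb1 and Lrp1). Of all genes, 6.64% were higher and 5.56% lower in double mutants, 2.04% higher in Vhl mutants and 2.45% lower in Pbrm1 mutants. Single arrays decided several calls of the uptake and transport genes. Gramd1a (0.29) lost its call without wild-type replicate 4 (0.26, adjusted p = 0.054) or double mutant replicate 4 (0.22, adjusted p = 0.10). Scarb1 in Pbrm1 mutants (-0.37, adjusted p = 0.02) lost it without wild-type replicate 1 (-0.33, adjusted p = 0.069) or Pbrm1 mutant replicate 3 (-0.30, adjusted p = 0.072). Lrp1 (-0.38) lost it without any of wild-type replicates 2 and 3 and Pbrm1 mutant replicates 1, 2 and 4 (-0.39 to -0.33), Lipa (-0.27) without any of 8 single arrays (-0.30 to -0.24), and Scarb1 in Vhl mutants (0.32) without any of 12 (0.28 to 0.33).

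Of 10 genes of efflux, storage and LXR signalling, 2 were higher and 0 lower in double mutants than in wild type. They were Apoe, the lipoprotein ligand, by 0.87 ± 0.11 (adjusted p = 1.7e-05, limma) and Abca1, the transporter that loads cholesterol onto apolipoproteins, by 0.70 ± 0.10 (adjusted p = 3.3e-05). In Vhl mutants Apoe was higher (0.43, adjusted p = 0.034) and Mylip, which degrades lipoprotein receptors, lower (-0.31, adjusted p = 0.027), and in Pbrm1 mutants Mylip was lower (-0.30, adjusted p = 0.031). Of all genes, 6.64% were higher in double mutants, 2.04% higher and 1.79% lower in Vhl mutants and 2.45% lower in Pbrm1 mutants. Leaving out 1 array ended the Vhl mutant call of Apoe for Vhl mutant replicates 1, 3 and 4 and wild-type replicates 1 and 3 (0.36 to 0.43). It ended that of Mylip for Vhl mutant replicates 1, 3 and 4 and wild-type replicates 1 and 4 (-0.32 to -0.26), and its Pbrm1 mutant call for Pbrm1 mutant replicates 3 and 4 and wild-type replicates 1 and 4 (-0.29 to -0.26). The double mutant calls of Apoe and Abca1 passed under every alternative run. Macrophages also express Apoe and Abca1. Of 12 macrophage markers, 7 were higher in double mutants, 10 in Vhl mutants and 1 in Pbrm1 mutants than in wild type, and their summed linear level ranged over 1442 to 1759, 1397 to 1909 and 894 to 960 in these groups, against 917 to 1086 in wild type. Over all genes, 6.64%, 2.04% and 1.59% were higher in double, Vhl and Pbrm1 mutants. The part of macrophages in the Apoe and Abca1 differences was not tested.

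Fatty acid synthesis, which SREBP-1 controls, showed 3 of 13 genes higher in double mutants than in wild type (Scd1, Elovl6 and Elovl5), 1 lower in Vhl mutants (Acss2) and 2 higher in Pbrm1 mutants (Scd1 and Elovl5). Of all genes, 6.64% were higher in double mutants, 1.79% lower in Vhl mutants and 1.59% higher in Pbrm1 mutants. Each of the 6 calls of fatty acid synthesis genes was lost without some single array of the groups compared. For double mutants these were wild-type replicates 1, 3 or 4 and double mutant replicates 1 or 2 for Scd1 (0.59, then 0.50 to 0.59), wild-type replicates 2 or 3 and double mutant replicates 1 or 2 for Elovl6 (0.37, then 0.29 to 0.35), and wild-type replicate 3 and double mutant replicates 1 or 2 for Elovl5 (0.19, then 0.17 to 0.18). For Pbrm1 mutants they were wild-type replicates 1, 3 or 4 and Pbrm1 mutant replicates 1, 2 or 3 for Scd1 (0.70, then 0.61 to 0.71) and Pbrm1 mutant replicate 4 for Elovl5 (0.23, then 0.20). Acss2 (-0.19) lost its call without any of 15 of the 16 arrays (-0.21 to -0.16). Scd1, the stearoyl-CoA desaturase, was higher in Pbrm1 than in Vhl mutants by 1.2 ± 0.18 (adjusted p = 9.8e-05, limma), which passed under every alternative run. Its mean was 9.85 ± 0.29 in double mutants, 8.75 ± 0.43 in Vhl mutants, 9.96 ± 0.14 in Pbrm1 mutants against 9.25 ± 0.26 in wild type (SD, n = 4 each).

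Other cells that make or store much sterol were checked by their markers. Of 9 adrenal cortex markers 0 passed in any of the 7 comparisons, and 0 had an unadjusted p under 0.05. Their summed linear level lay between 140 and 171 in all arrays, and Cyp11b1, the enzyme that defines adrenal cortex, averaged 3.33, at the lower quartile of the arrays. Of 9 adipose markers 0 passed in limma, while between 0 and 2 per comparison had an unadjusted p under 0.05. The summed level of the adipose markers ranged over 722 to 1515 in double mutants, 669 to 1102 in Vhl mutants, 910 to 2314 in Pbrm1 mutants against 648 to 1013 in wild type. Without the 3 arrays of highest adipose marker median (Pbrm1 mutant replicate 3, double mutant replicate 3 and Vhl mutant replicate 2) the calls of Hmgcs1 for double mutants against wild type (-0.22, adjusted p = 0.11), Sqle for double against Pbrm1 mutants (0.35, adjusted p = 0.11) and Lss for Vhl mutants against wild type (-0.43, adjusted p = 0.061) were lost, and the other 12 calls of the 9 genes remained. Cyp51 gained a call as higher in Vhl mutants than in wild type (0.34, adjusted p = 0.039).

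Tubule markers showed the labelled tissue. Slc34a1, the proximal tubule phosphate transporter, averaged 12.80, and Umod, which defines the thick ascending limb, 12.05. Of 12 proximal tubule markers 1 was higher and 4 lower in double mutants than in wild type, 1 was lower in Vhl mutants and 3 were higher in Pbrm1 mutants. Of 6 thick ascending limb markers 2 were higher and 3 lower in double mutants, and 3 were lower in Vhl mutants. Of 14 distal convoluted tubule and collecting duct markers 9 were lower in double mutants, 3 in Vhl mutants and 2 in Pbrm1 mutants. Of 8 liver markers 2 were lower in double mutants and 1 in Pbrm1 mutants. Of all genes, 6.64% were higher and 5.56% lower in double mutants, 2.04% and 1.79% in Vhl mutants and 1.59% and 2.45% in Pbrm1 mutants. Between mutants, 1 of the 12 proximal tubule markers was higher and 7 lower in double than in Pbrm1 mutants, and 5 were higher in Pbrm1 than in Vhl mutants. Of the 12 macrophage markers 9 were higher in double than in Pbrm1 mutants, and 11 were lower in Pbrm1 than in Vhl mutants, the comparisons in which Hmgcs1 also differed. Against wild type 7, 10 and 1 of them were higher in double, Vhl and Pbrm1 mutants, where Hmgcs1 differed by -0.26, -0.01 and -1.04. Over all genes, 6.82% were higher and 3.37% lower in double than in Pbrm1 mutants. For Pbrm1 against Vhl mutants 2.75% were higher and 4.71% lower, and 2.55% were lower in double than in Vhl mutants. Of the 14 distal and collecting duct markers 8 were lower in double than in Pbrm1 mutants and 6 lower in double than in Vhl mutants. The part of these shifts in the differences of the synthesis genes was not tested.

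The profile of Hmgcs1, which had the widest range of genotype means (1.04), was set against all 22179 other genes over the 16 arrays. Likeness was measured as the root mean square difference of log2 values after each gene was centred on its own mean, which had a median of 0.467 over all genes. The nearest was Ptprg, a receptor tyrosine phosphatase, at 0.118, followed by Pla2g7, a secreted phospholipase, at 0.176, 4833420G17Rik at 0.186, Ifi203-ps at 0.195 and Olfml3 at 0.199. All 5 were chosen for this likeness. None is on the lists of sterol genes. Ptprg had means of 7.64 ± 0.21 in double mutants, 7.99 ± 0.06 in Vhl mutants, 7.0 ± 0.03 in Pbrm1 mutants against 7.85 ± 0.10 in wild type (SD, n = 4 each).

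The gene 4833420G17Rik is also a chromosomal neighbour of Hmgcs1. The 10 nearest tested genes on each side of each of the 9 genes were counted after the values had been seen, using the gene order of the RefSeq table (GRCm38.p6). On chromosome 13, 4833420G17Rik is the third tested gene on one side of Hmgcs1. It read 6.23, 6.35, 6.26 and 6.59 in Pbrm1 mutants, against 7.40, 7.53, 7.52 and 7.24 in wild type. It was lower in Pbrm1 mutants by 1.06 ± 0.11 (adjusted p = 2.8e-06, limma), next to the -1.04 of Hmgcs1. Its interaction was 0.85 ± 0.15 (adjusted p = 0.0041), lost on averaging by description number and without double mutant replicates 1 to 3, with an adjusted p of up to 0.12.

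Other called neighbours of Hmgcs1 went both ways. Against wild type, Zfp131 was lower in Pbrm1 mutants (-0.42 ± 0.12, adjusted p rounding to 0.05, limma), as Hmgcs1 was, while Nnt was higher. For double against Pbrm1 mutants 4 of the 20 neighbours passed and all were higher, as Hmgcs1 was, namely Emb (0.34), Nnt (0.27), 4833420G17Rik (1.08) and Ccl28 (1.57), where 6.82% of all genes were higher. For the interaction 3 of 20 passed and all lay above 0, namely Emb (0.52), Nnt (0.36) and 4833420G17Rik (0.85), where 1.78% of all genes did. Nnt, on the same side at the fifth step, encodes a mitochondrial transhydrogenase that is disrupted in the C57BL/6J substrain. It read 9.42, 9.43, 9.28 and 9.33 in double mutants and 9.12, 9.17, 9.08 and 9.01 in Pbrm1 mutants, whereas the Vhl mutants read 8.61, 8.75, 8.62 and 8.76 and the wild type 8.67, 8.81, 8.79 and 8.85. Arrays with floxed Pbrm1 thus lay above all others, and the double mutants exceeded the wild type by 0.58 ± 0.06 (adjusted p = 1.7e-06, limma). Ccl28, a chemokine gene at the second step on that side, read 6.81, 6.45, 9.40 and 9.28 in double mutants, against 6.64, 6.56, 6.18 and 6.44 in wild type. The double mutant difference of 1.58 ± 0.48 (adjusted p = 0.035) was lost without any 1 wild-type array (1.49 to 1.63), double mutant replicate 3 (1.13, adjusted p = 0.096) or double mutant replicate 4 (1.1, adjusted p = 0.17). The split of Ccl28 between double mutant replicates 1 and 2 and replicates 3 and 4 was also seen for Hmgcs1 and Srebf2. It was not confined to them, since Ttr read 9.61, 9.78, 11.61 and 11.38 in double mutants and Slc22a6 10.9, 10.94, 11.71 and 11.57. Over all genes, replicates 1 and 2 correlated at 0.9954 and replicates 3 and 4 at 0.9945, against 0.9921 to 0.9933 for the other pairs. The part of strain background around Hmgcs1 in its differences was not tested.

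Of the 20 neighbours of Sc5d on chromosome 9, 0 passed for Pbrm1 mutants against wild type, and in double mutants 1 was higher (Nectin1) and 1 lower (Oaf, -0.25, adjusted p = 0.041, limma). Oaf differed by the same -0.25 in Pbrm1 mutants without passing (adjusted p = 0.083). Of the 20 neighbours of Hmgcs1, 1 was higher and 2 lower in Pbrm1 mutants, and 3 were higher in double mutants. Over the 180 neighbours of all 9 genes, 11.7% passed in double mutants, 3.89% in Vhl mutants and 2.78% in Pbrm1 mutants, beside the 12.2%, 3.84% and 4.04% of all genes.

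**Figure D4:**
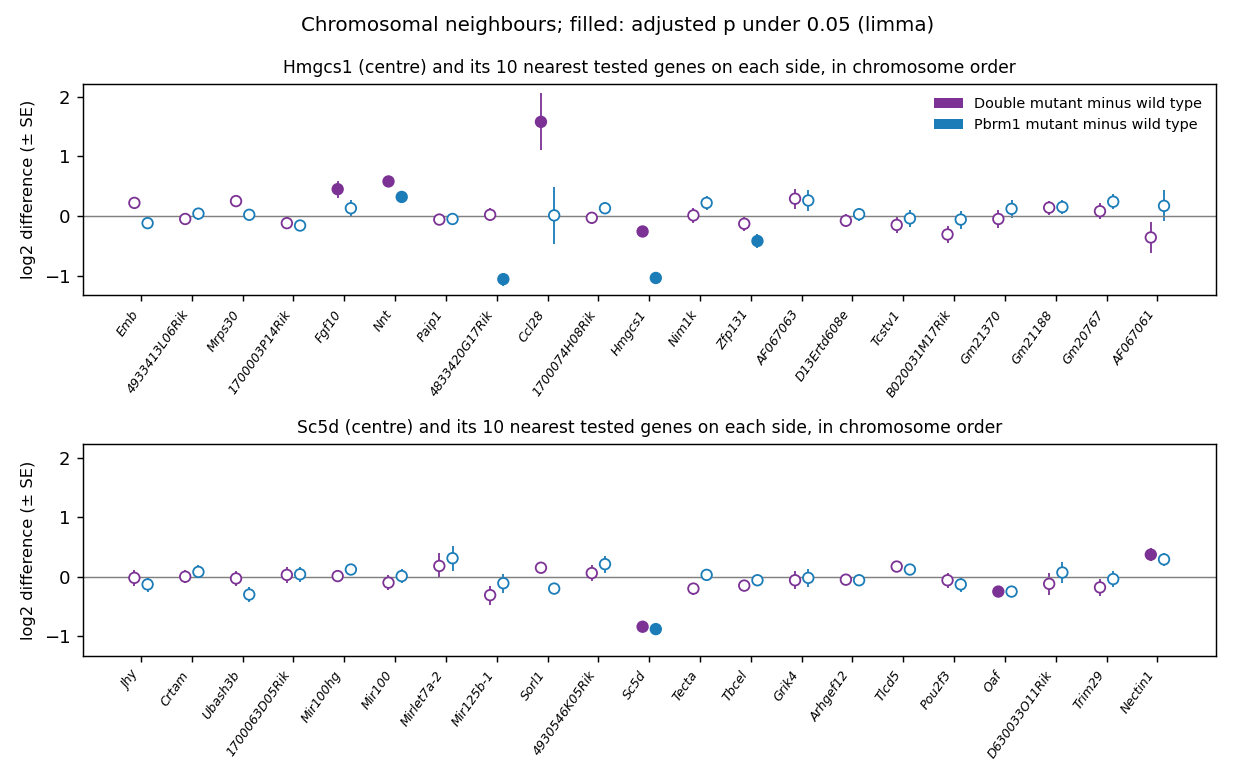
Log2 difference from wild type (vertical axis, points with SE) of Hmgcs1 and Sc5d, drawn at the centre, and of the 10 nearest tested genes on each side in chromosome order, for double and Pbrm1 mutants. Filled points passed the threshold in limma; beside Hmgcs1 (-1.04 in Pbrm1 mutants) 4833420G17Rik lies at -1.06, and Ccl28 at 1.58 in double mutants, while Oaf, the neighbour of Sc5d that passed as lower in double mutants, lies at -0.25.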

How the data were processed

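Per the submitters' processing notes, the deposited log2 values were made by the authors with RMA in Affymetrix Expression Console 1.4 from 16 arrays of kidney cortex RNA. The deposited table holds 41345 probe sets, and 0 of its columns of values were unused. Probe sets with 1 gene symbol (23521) were kept, while 1814 with several symbols and 16010 unlisted were left out, and the probe set of highest mean was used per gene (22180 genes). Groups came from the labels. limma 3.58.1 (R 4.3.3) was fitted to all genes with 4 groups and the description number as a random block (estimated correlation 0.0838), with a prior variance following mean expression (prior degrees of freedom 7.73, residual 12). Because the block weights double mutant replicate 4 more, fitted differences can depart slightly from those of the means. The fit was checked on simulated data. The replicate numbers do not pair arrays: over 24 same-numbered pairs the correlation of deviations from group means ran from -0.074 to 0.059.

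The 9 genes and the lists (other synthesis enzymes, SREBP processing, other users of farnesyl diphosphate, uptake, efflux, fatty acid synthesis, oxysterol and ketone body enzymes, markers of cell types) were chosen with earlier results of these data known. Named were the 9 genes, called genes of the 2 pathway lists nearest to them, at most 3 called genes of each other list per comparison, and the 5 genes most like Hmgcs1. Chromosomal neighbours were named after their values were seen. The array's build is not given in the sources used here, so coordinates are those of RefSeq promoters (GRCm38.p6). Tables were made with pandas 2.3.3 and numpy 2.4.6 in Python 3.11.15, and figures with matplotlib 3.10.9.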

Additional observations from a re-analysis of the deposited data

Results flagged for a closer look

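The double mutant difference from wild type departed from the sum of the single-mutant differences in 7 of the genes named. This is limma's test of the interaction at an adjusted p under 0.05, which 2.63% of all genes passed. Genes outside the 9 were mostly named because they passed in some comparison, so the count cannot be set against that share. The interaction was 0.79 for Hmgcs1, 0.85 for 4833420G17Rik, 0.62 for Scarb1, 0.56 for Mylip, 0.50 for Ptprg, 0.36 for Nnt and -0.67 for Insig1. A difference from wild type shared by all mutants does not cancel in these values. Ptprg and 4833420G17Rik were named for their likeness to Hmgcs1 over the same arrays and Nnt after its values were seen. Scarb1, Mylip and Insig1 were named because they passed in some comparison. The interactions of these 6 genes are therefore descriptions and not independent of the choice. Of the 7, the call of Hmgcs1 held under each of its 35 alternatives, and each of the other 6 was lost under some. Leaving out 1 array ended that of Nnt for double mutant replicates 1 and 2, Pbrm1 mutant replicates 3 and 4 and Vhl mutant replicate 3 (0.34 to 0.36), that of Insig1 for Pbrm1 mutant replicates 3 and 4 (-0.66 to -0.62), and that of Ptprg for 9 of the 16 arrays (0.44 to 0.50).

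A single array stood apart from the other 3 of its group, by Dixon's test at a critical value of 0.829, in 9 of 148 gene and group pairs, where chance gives about 1 in 20. None of the 9 cholesterol synthesis genes was among them. Scarb1 read 7.43 in double mutant replicate 1 (others 7.18 to 7.22) and 6.11 in Pbrm1 mutant replicate 3 (others 6.36 to 6.41). Gramd1a read 7.21 in Vhl mutant replicate 2 (others 7.02 to 7.04) and 6.80 in Pbrm1 mutant replicate 1 (others 6.93 to 6.95). Ch25h read 4.94 in Vhl mutant replicate 2 (others 5.34 to 5.41). Bdh1 read 7.30 in Vhl mutant replicate 1 (others 7.17 to 7.18) and 7.74 in wild-type replicate 4 (others 7.54 to 7.55). Olfml3 read 6.27 in double mutant replicate 3 (others 6.5 to 6.55) and 5.83 in Pbrm1 mutant replicate 3 (others 6.11 to 6.14).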

How the results depend on the processing

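Over 36 alternatives the 9 genes gave 63 gene and comparison pairs and 15 calls, of which 10 passed under every alternative and 5 were lost under some (Hmgcs1 and Mvd for double mutants against wild type, Sqle for double against Pbrm1 mutants, Lss for Vhl mutants and Cyp51 for Pbrm1 mutants against wild type). Of the 48 pairs that did not pass, 9 passed under some alternative. No pair changed sign where either value passed, and 63 values changed sign where neither did. The number of the 9 genes called for Vhl mutants against wild type was 1, but 2 with no block, with the replicate block, with double mutant replicates 2 and 3 averaged, with quantile normalization and with array weights, and 0 with arrays averaged per description number, with no trend and with only the groups compared. For double against Vhl mutants it was 1, but 3 with no block and 2 with the replicate block, with double mutant replicates 2 and 3 averaged, with quantile normalization and with only the groups compared. Leaving out an array or a description number gave 0 to 2, 1 to 2 and, for the interaction, 1 to 2 in place of 1. The replicate block otherwise stayed within 1.5 times each count. Over all genes, the calls for Pbrm1 mutants against wild type were 895, ranging from 274 with arrays averaged per description number to 1123, and those for the interaction 583, ranging from 99 with the same averaging to 988 without wild-type replicates 3 and 4. For double mutants against wild type they were 2706 (1212 without double mutant replicates 1 to 3), for Vhl mutants 851 (246 with averaging), for double against Vhl mutants 1408 (481 without double mutant replicates 1 to 3), for double against Pbrm1 mutants 2260 (1011, likewise) and for Pbrm1 against Vhl mutants 1656 (916 with averaging). Fewer arrays enter these fits. Of 93 calls of the other named genes 40 passed under every alternative and 53 were lost under some, none with a change of sign. Giving double mutant replicate 3 the number of replicate 4 and leaving out the arrays of highest adipose marker median were chosen after seeing the data.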

Other observations

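Single enzymes of ketone body and oxysterol metabolism also differed by genotype. Of 4 ketone body enzymes, 2 were lower in double mutants than in wild type, 2 lower in Vhl mutants and 1 higher in Pbrm1 mutants. Over all genes, 5.56% were lower in double mutants, 1.79% lower in Vhl mutants and 1.59% higher in Pbrm1 mutants. Bdh1, the hydroxybutyrate dehydrogenase, had means of 7.60 ± 0.15 in double mutants, 7.21 ± 0.07 in Vhl mutants, 8.0 ± 0.07 in Pbrm1 mutants, against 7.59 ± 0.10 in wild type (SD, n = 4 each). All Pbrm1 mutant arrays exceeded all Vhl mutant arrays, by 0.79 ± 0.08 (adjusted p = 1.3e-06, limma). Oxct1, which activates ketone bodies for oxidation, was lower in double mutants than in wild type by 0.31 ± 0.06 (adjusted p = 0.00058), and Acat1, the mitochondrial thiolase, by 0.23 ± 0.04 (adjusted p = 0.00074). Bdh1 was also lower in Vhl mutants and higher in Pbrm1 mutants than in wild type, by -0.39 (adjusted p = 0.0071) and 0.40 (adjusted p = 0.0046), and Acat1 was lower in Vhl mutants (-0.15, adjusted p = 0.049), all of which were lost on averaging arrays by description number, that of Acat1 also without any of 14 single arrays (-0.15 to -0.14). Of 8 oxysterol and bile acid enzymes, 2 were higher in double mutants than in wild type, Ch25h, which makes an oxysterol from cholesterol, by 0.80 ± 0.16 (adjusted p = 0.0015) and Cyp7b1, which hydroxylates oxysterols, by 0.59 ± 0.15 (adjusted p = 0.011). The Ch25h call was lost without double mutant replicates 1 to 3, where replicate 4 alone remained. Cyp7b1 read 10.17, 10.16, 10.87 and 10.93 in double mutants, against 9.7, 9.99, 10.09 and 10.07 in wild type. Its call was lost without double mutant replicate 4 (0.44, adjusted p = 0.063, limma). It was also lost without wild-type replicates 1 and 2 and without the 3 arrays of highest adipose marker median. In Vhl mutants 1 was higher (Ch25h, 0.69 ± 0.16, adjusted p = 0.015) and in Pbrm1 mutants 0 passed. Over all genes, 6.64% were higher in double mutants and 2.04% in Vhl mutants, and 4.04% passed in Pbrm1 mutants. The Vhl mutant call of Ch25h was lost without wild-type replicates 1 and 2 and without Vhl mutant replicates 3 and 4. It was also lost with only the groups compared. Over its alternatives the difference ran from 0.43 to 0.81, with adjusted p of up to 0.12 (limma). Ch25h is also made by macrophages, whose markers were higher in the same genotypes, and their part was not tested.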
